A study of Homo sapiens with 12 samples.

Results

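The genes described here encode 8 annexins (ANXA1, ANXA2, ANXA3, ANXA4, ANXA5, ANXA6, ANXA7 and ANXA11) and S100A10, the small partner protein of annexin A2. They were listed by symbol, and all 9 were found among the 25720 genes counted in one cell line and the 25714 counted in the other, or 28704 genes in all. The list was selected on their change in expression with ARD1 depletion in these libraries, in particular a steep rise of ANXA1 in one line, so the changes with depletion and their differences between the lines are given as description and carry no test. The 12 RNA libraries fall in 4 groups of 3. They were cells labelled Hep-3B given an siRNA against ARD1 (siARD1), cells labelled Hep-3B given a negative-control siRNA, Huh-7 cells given siARD1, and Huh-7 cells given the negative-control siRNA. Both are human hepatoma lines with no engineered allele named in the labels, and transfection with an siRNA is common to all 4 groups. ARD1 is now called NAA10. It is the catalytic subunit of NatA, a complex that acetylates the N termini of proteins, and the series as a whole concerns its part in glutathione synthesis and ferroptosis, an iron-dependent form of cell death.

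Annexins are cytosolic proteins that bind negatively charged phospholipids when calcium rises, and through this they organise membranes, vesicle traffic and the repair of torn plasma membrane. Annexin A2 forms a complex with a dimer of S100A10 that tethers membranes and, at the cell surface, serves as a docking site for plasminogen. Annexin A1 is known as an anti-inflammatory protein induced by glucocorticoids, and annexin A6 is an abundant annexin of normal liver.

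Total counts ran from 17327615 to 25960237 per library. The targeted gene NAA10 averaged 13.6 ± 2.47 CPM after siARD1 and 55.2 ± 5.93 CPM in controls of the cells labelled Hep-3B, and 10.99 ± 1.87 CPM after siARD1 and 173.5 ± 23.4 CPM in controls of Huh-7 (SD, n = 3 each). CPM are counts scaled to library size. In each line the exact permutation test, two-sided over 6 libraries, gave p = 0.1, the smallest p that this design allows. The cells labelled Hep-3B nearly lacked the liver genes that this line is known for. Their summed level of 10 hepatocyte-lineage markers was 233.4 to 252.6 CPM after siARD1 and 434.5 to 522.9 CPM in controls, against 26390 to 30670 CPM after siARD1 and 34020 to 35520 CPM in controls of Huh-7, and APOA1 and TTR were under 1 CPM in every library labelled Hep-3B. The identity of these 6 libraries is thus uncertain, and they are called Hep-3B-labelled below. The labels do not say whether the 3 libraries of a group came from separate cultures, so each p-value measures only the spread between libraries.

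ANXA1 was the member with the steepest change. It lies on chromosome 9 of GRCh38, from 73151757 to 73170393 on the plus strand, and ANXA2 lies on chromosome 15, from 60347134 to 60402883 on the minus strand. The promoters of both are shown because both genes responded differently in the lines while their sequences differ in kind. Each stretch was taken from RefSeq (GRCh38.p14), starts 250 bases before the RefSeq start site and ends where an annotated exon begins. It holds no annotated exon of its gene. The ANXA2 stretch lies inside the annotated gene, which begins further upstream on the minus strand. Capitals mark, in ANXA1, a CCAAT box that reads ATTGG on this strand, and in ANXA2 an AP-1 motif. The coordinates are chr9:73151615-73151756 on the plus strand and chr15:60398044-60398236 on the minus strand.
ANXA1: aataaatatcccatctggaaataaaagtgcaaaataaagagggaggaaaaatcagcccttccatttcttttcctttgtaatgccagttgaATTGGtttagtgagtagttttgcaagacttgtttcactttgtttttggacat
ANXA2: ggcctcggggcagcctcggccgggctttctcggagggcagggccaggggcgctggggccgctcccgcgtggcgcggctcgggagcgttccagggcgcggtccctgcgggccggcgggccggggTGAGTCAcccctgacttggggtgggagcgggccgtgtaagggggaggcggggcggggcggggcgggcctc

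Over the whole promoter window of 250 bases before to 50 bases after the start site, ANXA1 held 37.7% G and C, a lower share than in all but 7.57% of 35116 RefSeq windows. The window of ANXA2 held 76.0%, and 92.2% of windows held less. The other 7 genes had windows of 51.7 to 78.0% G and C, so ANXA1 was the one member with an AT-rich promoter. Motifs were searched on both strands. A TATA box (TATAAA) lay 31 bases before the start in both ANXA1 and ANXA2, was also found in ANXA11, and occurs in 11.5% of all windows. The CCAAT box (CCAAT, or ATTGG on the other strand) was found for 4 of the 9 genes and in 34.6% of all windows. The AP-1 motif (TGAGTCA, or TGACTCA on the other strand) occurs in 4.95% of windows and, among the 9 genes, was found in ANXA2 alone. A GC box (GGGCGG) was found for 7 of the 9 genes, in no window of ANXA1 or ANXA3, and in 45.0% of all windows. CATTCC, the motif of TEAD factors, was in no window of the 9 genes and in 4928 of the 35116 windows, and the palindromic glucocorticoid response element was in none of the 9 and in 0.00285% of all windows. TGACGTCA, the cAMP response element, was in none of the 9 and in 1.85% of all windows. The E-box (CACGTG) was found for ANXA4 and ANXA6 and in 7.26% of windows, and the antioxidant response element core (TGACNNNGC) for ANXA7 and in 13.3% of windows. These are letter matches and say nothing of binding.

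In the Hep-3B-labelled cells ANXA1 was abundant in both groups, at 795, 719 and 869 CPM after siARD1 and 831, 863 and 940 CPM in controls. These groups overlapped, and the log2 fold change was -0.14 (SE 0.070). In Huh-7 the gene was scarce, at 9.90, 11.1 and 9.72 CPM after siARD1 and at 1.13, 1.41 and 1.40 CPM in controls. Every siARD1 library there was far above every control. The Huh-7 values rest on 186 to 215 reads per library after siARD1 and on 20 to 32 reads per control library. The fitted log2 fold change in Huh-7 was 2.95 (SE 0.174), a 7.72-fold rise. Even after it, ANXA1 in Huh-7 reached 1.03 to 1.17% of its mean level over the 6 Hep-3B-labelled libraries, against 0.119 to 0.151% in Huh-7 controls. Another 26 genes were abundant in the Hep-3B-labelled cells and picked because they were at least 1000-fold lower in Huh-7. They stood at a median of 0.0347 to 0.0367% of their Hep-3B-labelled level in Huh-7 siARD1 libraries and 0.0297 to 0.0424% in Huh-7 controls. Their low level follows from that choice, so the source of the ANXA1 reads was not tested.

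**Figure D1:**
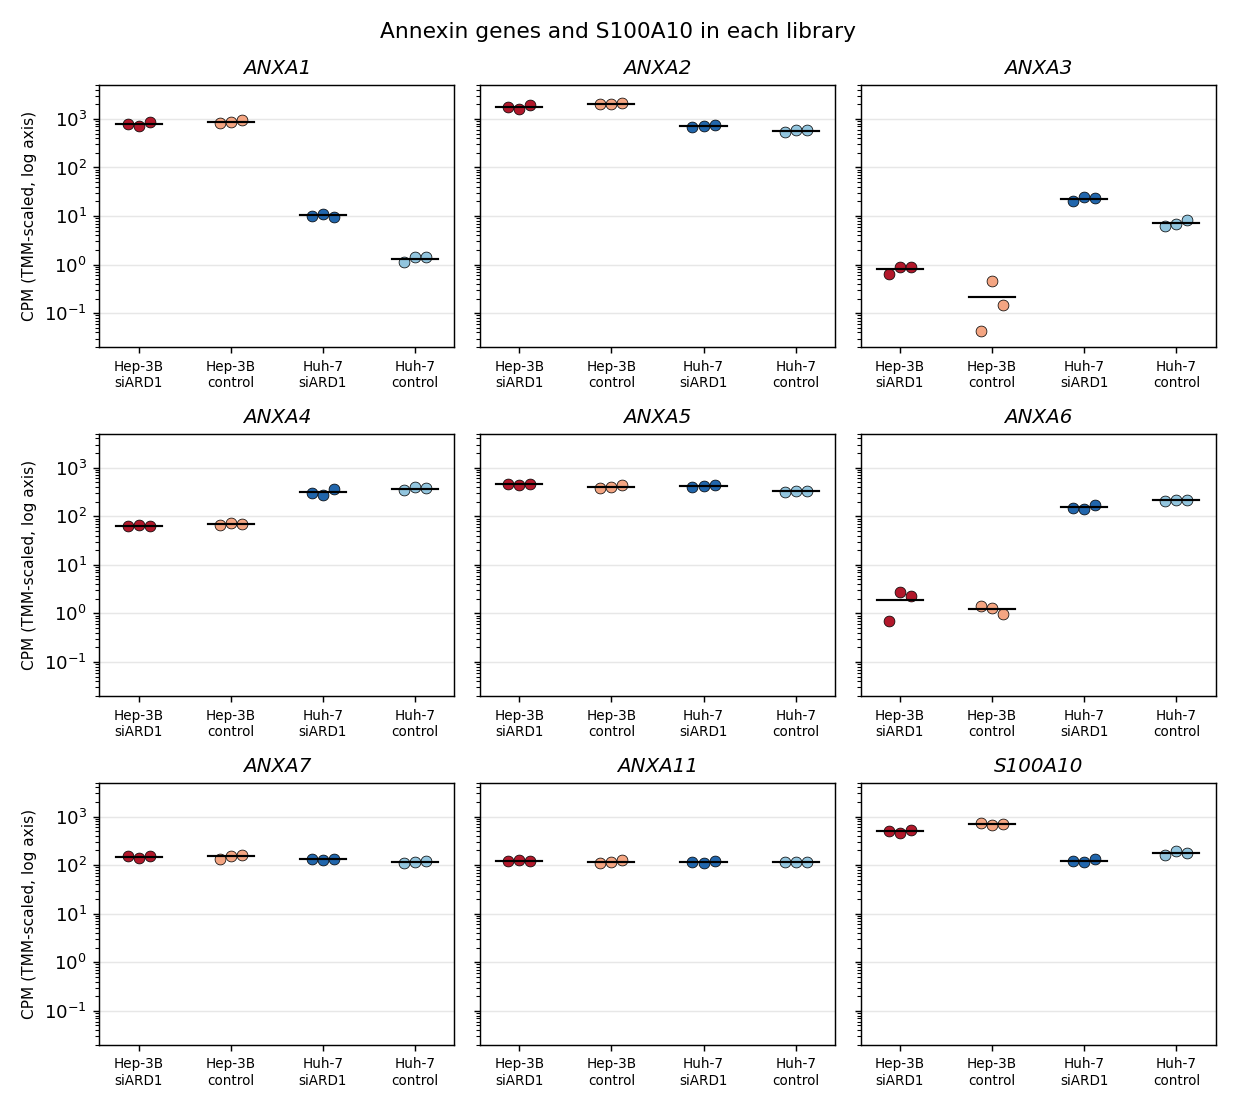
CPM of the 9 genes in each of the 12 libraries, scaled within each line, on a log axis shared by all panels. Points are libraries and lines are group means (n = 3). ANXA1 stands near 800 CPM in both Hep-3B-labelled groups, near 10 CPM in Huh-7 after siARD1 and near 1 CPM in Huh-7 controls. ANXA3 and ANXA6 show the opposite order of the lines.

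ANXA2 and S100A10, the subunits of one complex, moved together in one line and apart in the other. Both were lower after siARD1 in the Hep-3B-labelled cells. There ANXA2 stood at 1795, 1624 and 1887 CPM after siARD1 and at 1982, 1997 and 2144 CPM in controls, a log2 fold change of -0.21 (SE 0.0615). S100A10 stood at 514, 462 and 516 CPM after siARD1 and at 733, 683 and 710 CPM in controls, a log2 fold change of -0.51 (SE 0.0601). Neither gene's groups overlapped. In Huh-7, ANXA2 stood at 669, 714 and 733 CPM after siARD1 and at 548, 596 and 583 CPM in controls, and every siARD1 library was higher. S100A10 there stood at 124, 115 and 133 CPM after siARD1 and at 162, 192 and 181 CPM in controls, and every siARD1 library was lower. The Huh-7 log2 fold changes were 0.29 (SE 0.0552) for ANXA2 and -0.53 (SE 0.0638) for S100A10. ANXA2 has processed pseudogenes of near-identical sequence, and the sources used here do not say how shared reads were counted, so its values are uncertain to that extent.

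Levels of different genes are compared per kb, as CPM divided by the length of all annotated exons merged (union exons, GENCODE 29). On this scale the ratio of ANXA2 to S100A10 within a library averaged 0.622 ± 0.0155 after siARD1 and 0.504 ± 0.0281 in controls of the Hep-3B-labelled cells (SD, n = 3 each). It averaged 0.998 ± 0.0739 after siARD1 and 0.566 ± 0.0239 in controls of Huh-7. In both lines the 3 ratios after siARD1 lay above all 3 control ratios. The ratio depends on the length used, and with the longest transcript it averaged 1.95 after siARD1 and 1.10 in controls of Huh-7.

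ANXA3, an annexin known from neutrophils, was the one member with a fitted rise of more than 3-fold in both lines. It was near the detection limit in the Hep-3B-labelled cells, with 11, 21 and 23 reads after siARD1 and 1, 8 and 3 reads in controls. The groups did not overlap there, at 0.632, 0.911 and 0.885 CPM after siARD1 and 0.0434, 0.463 and 0.145 CPM in controls. The fitted log2 fold change of 2.01 (SE 0.554) rests on 55 reads after siARD1 and 12 reads in controls in all, and the gene passed the filter on low counts through the siARD1 libraries. Without control replicate 1, which had the lowest count, it was 1.47 and no longer passed the threshold, and without control replicate 2, which had the highest control count, it was 3.08. DESeq2 gave the gene no adjusted p, and it did not pass a filter of 1 CPM in 3 libraries, so those alternatives hold no call of it. In Huh-7 the gene stood at 20.01, 25.04 and 23.5 CPM after siARD1 and at 6.19, 6.77 and 8.32 CPM in controls, again with no overlap, and the log2 fold change was 1.68 (SE 0.12). ANXA3 in the Hep-3B-labelled cells reached 4.76 to 6.88% of its mean Huh-7 level after siARD1 and 0.329 to 3.49% in controls. Another 25 genes were abundant in Huh-7 and picked because they were at least 1000-fold lower in the Hep-3B-labelled cells. They stood there at a median of 0.00645 to 0.00685% after siARD1 and 0.0359 to 0.056% in controls. Their low level follows from that choice, so the source of the ANXA3 reads was not tested.

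ANXA5, the annexin used as a probe for phosphatidylserine on dying cells, was higher after siARD1 in both lines. Its levels in the Hep-3B-labelled cells were 452, 440 and 471 CPM after siARD1 and 386, 410 and 435 CPM in controls. The log2 fold change there, 0.15 (SE 0.0601), did not pass the threshold. Its levels in Huh-7 were 400, 420 and 448 CPM after siARD1 and 320, 339 and 328 CPM in controls, with a log2 fold change of 0.36 (SE 0.0542). The groups did not overlap in either line, with a gap that was narrow in the Hep-3B-labelled cells.

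ANXA6, an annexin with a duplicated core that acts in endosome traffic and cholesterol handling, was nearly absent from the Hep-3B-labelled cells, at 0.689, 2.82 and 2.23 CPM after siARD1 and 1.39, 1.27 and 0.970 CPM in controls. The siARD1 libraries lay on both sides of the controls there, and the log2 fold change of 0.70 has an SE of 0.388. In Huh-7 it was abundant and lower after siARD1, at 149, 143 and 167 CPM after siARD1 and 203, 217 and 219 CPM in controls. The Huh-7 groups did not overlap, and the log2 fold change was -0.48 (SE 0.0586).

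ANXA4, which binds membranes of secretory epithelia, did not pass the threshold in either line. Its levels in the Hep-3B-labelled cells were 63.8, 64.9 and 64.3 CPM after siARD1 and 67.1, 71.1 and 68.5 CPM in controls, a narrow gap with a log2 fold change of -0.099 (SE 0.0641). In Huh-7 they were 307, 270 and 363 CPM after siARD1 and 345, 394 and 380 CPM in controls, where the groups overlapped, with a log2 fold change of -0.25 (SE 0.0973) that passed the threshold under 8 of 14 alternatives.

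ANXA7 and ANXA11 are annexins with long N-terminal tails, and ANXA11 is known for tethering RNA granules to lysosomes. ANXA7 overlapped between groups in the Hep-3B-labelled cells, at 155, 139 and 152 CPM after siARD1 and 136, 155 and 162 CPM in controls, a log2 fold change of -0.027 (SE 0.0713). In Huh-7 it stood at 134, 130 and 135 CPM after siARD1 and at 111, 115 and 121 CPM in controls, all siARD1 libraries being higher, with a log2 fold change of 0.20 (SE 0.0524). Its exons share 105 bases with an antisense gene, and with the strand setting of the counting unknown, reads from that stretch cannot be assigned. ANXA11 had the smallest change in Huh-7 of the 9 genes and overlapped between groups in both lines. It stood at 120, 126 and 120 CPM after siARD1 and 113, 117 and 126 CPM in controls of the Hep-3B-labelled cells, and at 116, 112 and 120 CPM after siARD1 and 118, 118 and 117 CPM in controls of Huh-7. The log2 fold changes were 0.042 (SE 0.0629) in the Hep-3B-labelled cells and -0.018 (SE 0.0517) in Huh-7.

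**Figure D2:**
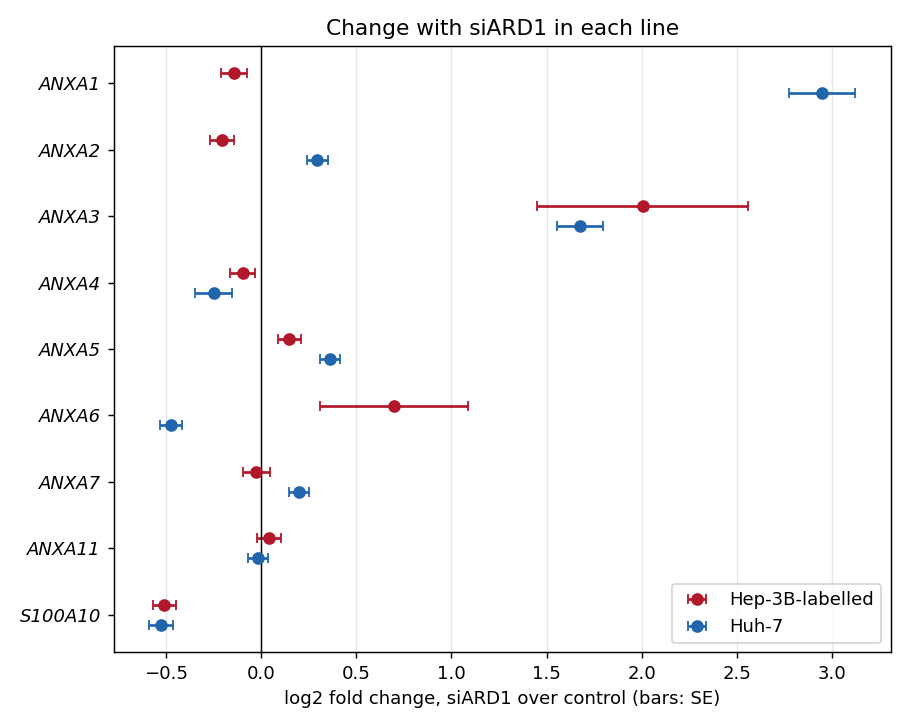
Log2 fold change of the 9 genes, siARD1 over control, with its standard error, in the Hep-3B-labelled cells (red) and in Huh-7 (blue). The point of ANXA1 in Huh-7 stands at 2.95, those of S100A10 nearly coincide at -0.51 and -0.53, and those of ANXA2 lie on opposite sides of 0.

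All 9 genes passed the filter on low counts in every comparison. An adjusted p under 0.05 by edgeR's quasi-likelihood test was reached by 3 of the 9 in the Hep-3B-labelled cells (1 higher, 2 lower), where 32.2% of 15762 genes tested were called (16.8% higher, 15.3% lower). In Huh-7 it was reached by 7 of the 9 (5 higher, 2 lower), where 40.1% of 15919 genes were called (21.2% higher, 18.9% lower). Groups did not overlap for 5 of the 9 in the Hep-3B-labelled cells, against 45.0% of all genes, and for 7 of the 9 in Huh-7, against 50.0%. Because these contrasts chose the genes, nothing is read from these counts. The median log2 fold change of the 9 was -0.027 in the Hep-3B-labelled cells and 0.20 in Huh-7, beside medians over all genes tested of -0.011 and -0.0076. The difference between the lines in the siARD1 change, Hep-3B-labelled cells minus Huh-7, was -3.07 (SE 0.163) for ANXA1, -0.48 (SE 0.0887) for ANXA2 and 1.22 (SE 0.388) for ANXA6. It was 0.033 (SE 0.095) for S100A10, and for the other 5 genes it lay between -0.21 and 0.37. By edgeR's test of this interaction 3 of the 9 were called (1 higher, 2 lower), where 31.4% of 17122 genes were called (16.2% higher, 15.2% lower). The higher one is ANXA6, whose call was lost under 11 of 19 alternatives, DESeq2 (1.16) and limma-voom (1.05) among them.

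The lines also differed in their basal levels, a contrast that did not choose the genes, although its control libraries serve in the changes above. In controls, the Hep-3B-labelled cells held more ANXA2, with a log2 difference of 1.99 (SE 0.062, edgeR adjusted p = 7.59e-18), and more S100A10, at 2.15 (SE 0.0673, adjusted p = 8.14e-18). Their ANXA6 was lower by far, at -7.29 (SE 0.106, adjusted p = 1.24e-23), and so was ANXA4, at -2.28 (SE 0.0657, adjusted p = 1.96e-18). ANXA3 was lower too, with a fitted difference of -4.97 (SE 0.351). It had only 1, 8 and 3 reads in the Hep-3B-labelled controls and passed the filter on low counts through the Huh-7 controls. Its value is thus a description. The remaining members differed by less. ANXA5 was higher by 0.48 (adjusted p = 1.99e-07), ANXA7 by 0.55 (adjusted p = 1.59e-07) and ANXA11 by 0.17 (adjusted p = 0.0121). The call of ANXA11 was lost without control replicate 3 of either line (0.13 without the one labelled Hep-3B and 0.16 without the Huh-7 one) and with upper-quartile scaling (0.069). ANXA1 was chosen with its low Huh-7 level in view, so its difference of 9.53 (SE 0.104) is a description. With ANXA1 and ANXA3 counted, all 9 genes were called, 6 higher and 3 lower, where 81.4% of 16524 genes were called (40.1% higher, 41.3% lower) and 82.8% had no overlap between groups, so a call between these lines is the common case.

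In the siARD1 libraries, which the control comparison does not use, the same 6 genes were higher and the same 3 lower in the Hep-3B-labelled cells, where 83.3% of 16184 genes were called (41.2% higher, 42.0% lower) and 84.2% had no overlap between groups. S100A10 differed by 2.15 (SE 0.0658, edgeR adjusted p = 2.33e-19), as much as in controls. ANXA2 differed by 1.48 (SE 0.0644, adjusted p = 2.77e-16), ANXA4 by -2.13 (SE 0.0844, adjusted p = 5.13e-14), ANXA3 by -4.63 (SE 0.178, adjusted p = 2.21e-17) and ANXA6 by -6.09 (SE 0.248, adjusted p = 3.48e-07). Smaller differences were 0.25 for ANXA5 (adjusted p = 0.000439), 0.31 for ANXA7 (adjusted p = 4.61e-05) and 0.22 for ANXA11 (adjusted p = 0.00161). ANXA1 differed by 6.42 (SE 0.0908), given as a description. In fold terms ANXA1 was 85.8-fold higher in the Hep-3B-labelled cells among siARD1 libraries and 738-fold higher among controls.

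**Figure D3:**
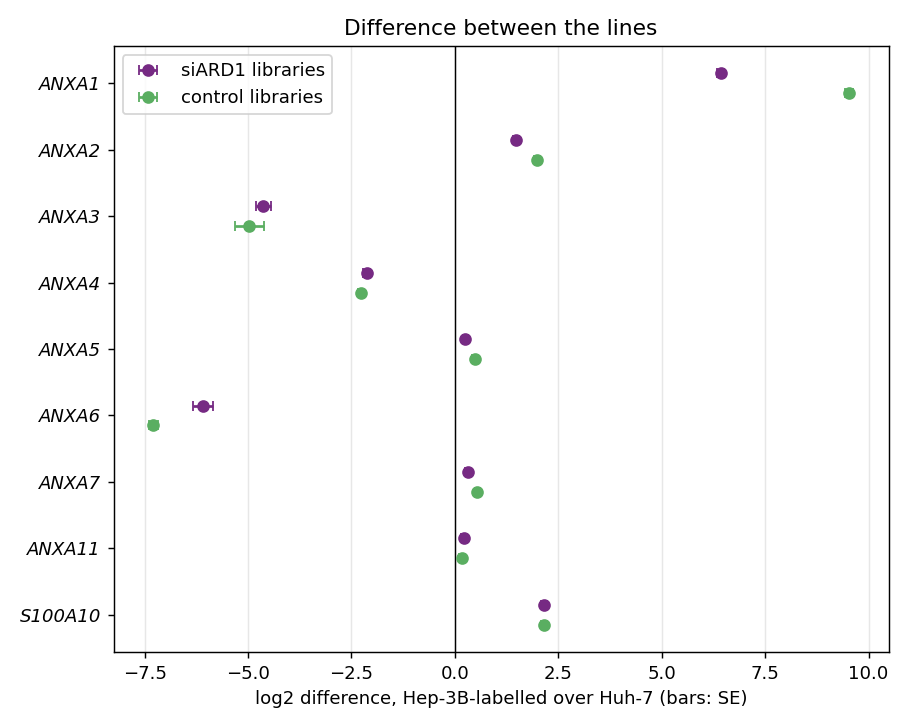
Log2 difference between the lines, Hep-3B-labelled cells over Huh-7, with its standard error, in siARD1 libraries (purple) and in control libraries (green). The difference of ANXA1 is 6.42 in siARD1 libraries and 9.53 in controls, that of ANXA6 is -6.09 in siARD1 libraries and -7.29 in controls, and that of S100A10 is 2.15 in both.

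The order of groups by level can be given for each gene on the scaling shared by all 12 libraries, which the comparisons between lines use. ANXA1, ANXA2, S100A10, ANXA7 and ANXA11 were higher in both Hep-3B-labelled groups than in either Huh-7 group, and ANXA3, ANXA4 and ANXA6 were higher in both Huh-7 groups, in each case with no overlap between the lines. ANXA11 stood at 127.0 to 133.7 CPM after siARD1 and 120.1 to 133.6 CPM in controls of the Hep-3B-labelled cells, and at 105.1 to 111.9 CPM after siARD1 and 110.6 to 111.9 CPM in controls of Huh-7. ANXA5 was highest in the Hep-3B-labelled cells after siARD1, at 467.0 to 501.3 CPM, then in their controls, at 410.5 to 462.2 CPM, which overlapped with Huh-7 after siARD1, at 374.5 to 419.3 CPM. Huh-7 controls stood below all others, at 301.7 to 320.8 CPM. Within the Hep-3B-labelled cells the siARD1 and control groups overlapped for ANXA1, ANXA6, ANXA7 and ANXA11, and within Huh-7 for ANXA4 and ANXA11.

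Per kb of union exons, S100A10 was the most abundant transcript of the 9 in the Hep-3B-labelled cells, with 322.4 ± 20.1 CPM per kb after siARD1 and 459.3 ± 16.1 in controls (SD, n = 3 each). ANXA2 came next, with 200.4 ± 15.1 after siARD1 and 231.3 ± 10.1 in controls, then ANXA1, with 174.1 ± 16.4 after siARD1 and 192.5 ± 12.3 in controls. ANXA2 and ANXA1 overlapped in the siARD1 libraries. ANXA5, ANXA7, ANXA11 and ANXA4 followed in that order without overlap. ANXA6 and ANXA3 were at the bottom, and overlapped after siARD1. Per kb of the longest transcript, ANXA2 stood above S100A10 after siARD1 without overlap, and the genes overlapped in controls.

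In Huh-7 the leading transcript on this scale differed with treatment, whereas per kb of the longest transcript ANXA5 led in both groups. After siARD1, ANXA5 led with 139.3 ± 7.86 CPM per kb, above S100A10 with 80.3 ± 5.61 and ANXA2 with 79.9 ± 3.71, which overlapped. In controls, S100A10 with 115.6 ± 9.74 and ANXA5 with 108.5 ± 3.07 overlapped at the top, above ANXA2 with 65.2 ± 2.82. ANXA7 came next in both groups, overlapping with ANXA6 in controls. ANXA1 came last in both, with 2.25 ± 0.169 after siARD1 and 0.288 ± 0.0353 in controls, and ANXA3 was just above it. The 9 genes together summed to 919.2 ± 57.4 CPM per kb after siARD1 and 1092 ± 34.0 in controls of the Hep-3B-labelled cells, and to 422.8 ± 21.7 after siARD1 and 418.2 ± 20.4 in controls of Huh-7, where the difference was smaller than the spread between libraries. As shares of that sum in Huh-7, ANXA5 made up 32.9% after siARD1 and 26% in controls, S100A10 19.0% after siARD1 and 27.6% in controls, and ANXA1 0.533% after siARD1 and 0.0686% in controls. Of the sum in the Hep-3B-labelled cells, ANXA1 made up 18.9% after siARD1 and 17.6% in controls, and ANXA6 0.0389% after siARD1 and 0.0205% in controls.

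**Figure D4:**
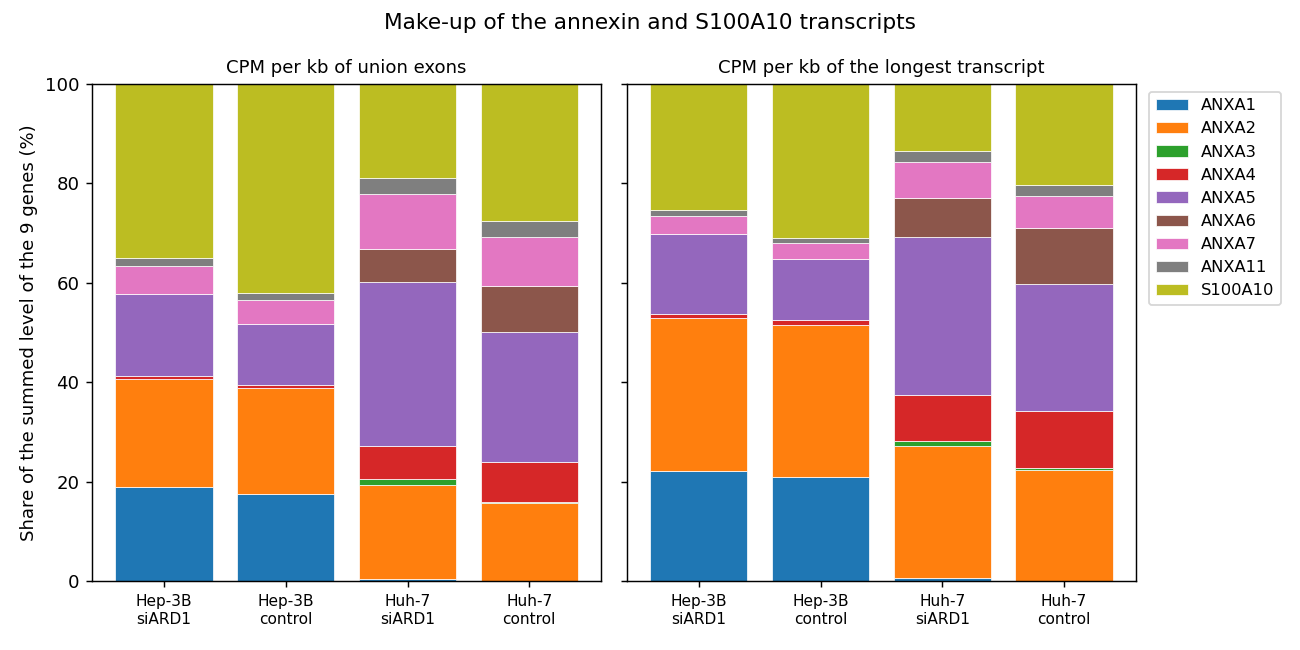
Share of each of the 9 genes in their summed level, in percent of CPM per kb, by group mean, with union exon length on the left and longest transcript length on the right. ANXA1 forms 18.9 and 17.6% in the Hep-3B-labelled groups on the left scale and is barely visible in Huh-7, where ANXA6 and ANXA4 take up more of the sum.

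The pattern of ANXA1 across the 12 libraries was compared with that of 11008 protein-coding genes of at least 5 CPM on average, by Pearson correlation of log2 CPM on the scaling shared by all libraries, which the CPM of these genes below use too. Among the 5 most alike were PTGR1, a reductase of prostaglandins and leukotrienes, the filamin genes FLNA and FLNC, which encode actin crosslinkers, and RAP1GAP2, a regulator of the GTPase Rap1, with r of 0.998 to 0.999. The libraries fall into 2 lines far apart, which sets most of such a correlation, and 113 genes reached 0.99, so it is given as a description only. PTGR1 averaged 1440 ± 49.4 CPM after siARD1 and 1653 ± 29.7 in controls of the Hep-3B-labelled cells, and 291.1 ± 4.22 after siARD1 and 136.8 ± 6.07 in controls of Huh-7. FLNA averaged 1951 ± 39.8 after siARD1 and 1771 ± 59.0 in controls of the Hep-3B-labelled cells, and 297.2 ± 26.5 after siARD1 and 143.0 ± 6.04 in controls of Huh-7. Both genes, like ANXA1, were lowest in Huh-7 controls and higher in Huh-7 after siARD1, on a far smaller scale of difference. They were picked for this likeness, so it follows from the choice. FLNA was also higher after siARD1 in the Hep-3B-labelled cells, where ANXA1 was not. With Spearman's rho, or over the 6 Huh-7 libraries alone, 0 of these 5 genes stayed among the first 5.

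Beyond the 9 genes, 5 other annexin genes were looked up, and 2 were abundant enough to test in each line. ANXA9 fell in the Hep-3B-labelled cells, with 2.7, 4.47 and 3.62 CPM after siARD1 and 5.95, 5.50 and 6.40 CPM in controls (log2 fold change -0.71, SE 0.183, edgeR adjusted p = 0.00711). ANXA13, an annexin of intestinal and kidney epithelium, fell in Huh-7, with 1.39, 1.81 and 1.93 CPM after siARD1 and 7.996, 6.99 and 6.22 CPM in controls (log2 fold change -2.04, SE 0.19, adjusted p = 2.98e-08). ANXA10 stood at 117.6 to 143.8 CPM after siARD1 and 81.7 to 129.3 CPM in controls of the Hep-3B-labelled cells, a difference that did not pass the test (adjusted p = 0.150) except without control replicate 3, with limma-voom or with the replicate block, and under 1 CPM in every Huh-7 library.

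S100 proteins are small calcium sensors, several of which bind annexins. Of 18 other S100 genes, 9 were tested in the Hep-3B-labelled cells, where 2 rose and 1 fell, beside 32.2% of all genes called, with a list median log2 fold change of -0.022 beside -0.011 over all genes. S100A4, known for its link to cell motility, fell, with 334, 294 and 337 CPM after siARD1 and 520, 437 and 487 CPM in controls (log2 fold change -0.58, SE 0.0715, adjusted p = 1.97e-05). S100P rose by 0.28 (SE 0.064, adjusted p = 0.00319). S100A11, the partner of annexin A1, rose by 0.18 (SE 0.0592, adjusted p = 0.0317), a call lost without siARD1 replicate 1 (0.18), siARD1 replicate 3 (0.17), control replicate 1 (0.13) or control replicate 2 (0.20), and with upper-quartile scaling (0.14). The number falling was 2 without control replicate 2 and with upper-quartile scaling, no filter on low counts or the replicate block. In Huh-7 8 were tested, of which 4 rose and 1 fell, beside 40.1% of all genes called. The list median there was 0.33 beside -0.0076. In Huh-7 3 rose without siARD1 replicate 3, control replicate 1 or control replicate 3, and 5 with no filter. With upper-quartile scaling 2 fell. S100P rose, with 25.1, 25.2 and 18.9 CPM after siARD1 and 9.46, 10.2 and 10.7 CPM in controls (log2 fold change 1.19, SE 0.113, adjusted p = 4.17e-08). S100A6, a partner of several annexins, rose as well, with 9.70, 10.7 and 9.83 CPM after siARD1 and 4.39, 6.36 and 6.26 CPM in controls (log2 fold change 0.82, SE 0.143, adjusted p = 9.56e-05). S100A9, a subunit of calprotectin, fell, with 3.77, 4.10 and 4.13 CPM after siARD1 and 8.90, 12.03 and 14.1 CPM in controls (log2 fold change -1.56, SE 0.16, adjusted p = 1.27e-07).

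**Figure D5:**
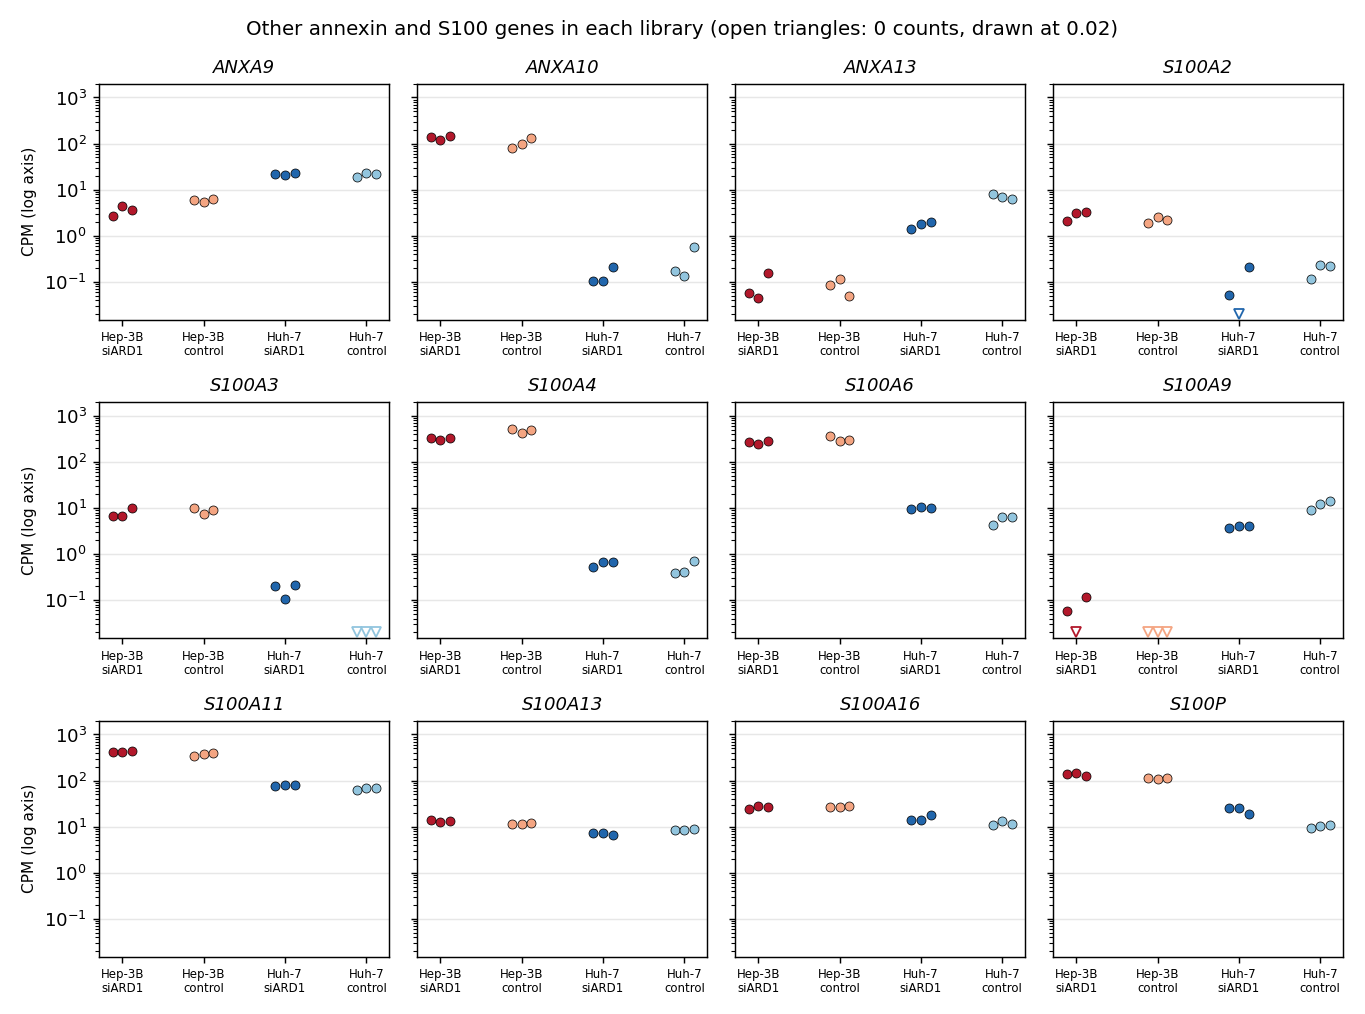
CPM of other annexin and S100 genes in each of the 12 libraries, on a log axis shared by all panels, with libraries of 0 counts drawn as open triangles. S100P is higher after siARD1 in both lines, while ANXA13 and S100A9 are lower after siARD1 in Huh-7 and nearly absent in the Hep-3B-labelled cells.

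Among 17 genes for binding partners of annexins and S100A10, 12 were tested in each line. Of these, 3 rose and 4 fell in the Hep-3B-labelled cells (list median -0.14), beside 32.2% of all genes called. The number rising was 0 without siARD1 replicate 3, control replicate 1 or control replicate 2, and 1 without siARD1 replicate 1 or with upper-quartile scaling. HLTF, a chromatin helicase, fell by 0.34 (SE 0.0654, adjusted p = 0.000832). EGFR, whose traffic annexins take part in, rose by 0.27 (SE 0.0822, adjusted p = 0.0202), and PDCD6, the calcium sensor ALG-2, fell by 0.33 (SE 0.105, adjusted p = 0.0235). The call of EGFR was lost without siARD1 replicate 3 (0.20), control replicate 1 (0.21) or control replicate 2 (0.24), and that of PDCD6 without siARD1 replicate 2 (-0.26) or control replicate 2 (-0.26). In Huh-7, 6 rose and 3 fell (list median 0.17), beside 40.1% of all genes called, and the number falling was 5 with upper-quartile scaling or a filter of 1 CPM in 3 libraries. CD44, the hyaluronan receptor, rose to 23.9, 25.5 and 26.8 CPM after siARD1, against 12.9, 12.1 and 13 CPM in controls (log2 fold change 1.001, SE 0.091, adjusted p = 2.13e-08). DYSF, which encodes the membrane-repair protein dysferlin, rose to 10.62, 10.52 and 10.8 CPM after siARD1, against 6.48, 6.54 and 7.05 CPM in controls (log2 fold change 0.67, SE 0.12, adjusted p = 0.000134).

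Of 13 genes of the plasminogen system, the surface pathway that annexin A2 and S100A10 serve, 10 were tested in the Hep-3B-labelled cells, where 4 rose and 1 fell (list median 0.086), beside 32.2% of all genes called. The number falling was 2 without siARD1 replicate 2. PLAU, the gene of urokinase, rose by 0.52 (SE 0.087, edgeR adjusted p = 0.000274) and TFPI2, a protease inhibitor, by 0.93 (SE 0.183, adjusted p = 0.00106). In Huh-7 11 were tested, of which 2 rose and 4 fell (list median -0.091), beside 40.1% of all genes called. The number rising was 3 without siARD1 replicate 1. It was 1 without any one other library, and with upper-quartile scaling, DESeq2 or limma-voom. The number falling was 3 without any one library, and with DESeq2, limma-voom, no filter on low counts or the replicate block. PLG, the gene for plasminogen itself, fell to 62.4, 53.7 and 66.5 CPM after siARD1, against 151, 160 and 145 CPM in controls (log2 fold change -1.32, SE 0.0679, adjusted p = 8.89e-12). SERPINF2, which encodes the plasmin inhibitor antiplasmin, fell by 0.75 (SE 0.0733, adjusted p = 7.11e-07), and SERPINE2, another protease inhibitor, rose by 1.05 (SE 0.0562, adjusted p = 5.12e-12). PLG and SERPINF2 are liver products. Of 10 hepatocyte-lineage markers, 8 were tested in the Hep-3B-labelled cells, where 6 fell and 0 rose (median -0.91), beside 15.3% of all genes lower, and 10 in Huh-7, where 4 fell and 0 rose (median -0.12), beside 18.9% of all genes lower. Of 5 cholangiocyte markers, 3 were tested in the Hep-3B-labelled cells, where 2 rose and 0 fell, beside 16.8% of all genes higher and 15.3% lower. In Huh-7 4 were tested, of which 2 rose and 1 fell, beside 21.2% of all genes higher and 18.9% lower. KRT19, a keratin of bile duct cells, had a fitted rise of 2.12 in the Hep-3B-labelled cells (SE 0.651, edgeR adjusted p = 0.0335). It came from low counts with overlapping groups, at 0.3447, 2.906 and 2.348 CPM after siARD1 and 0.6078, 0.2896 and 0.3878 CPM in controls. In Huh-7 the rise of KRT19 was 1.09 (SE 0.115, adjusted p = 1.57e-07). EPCAM, another cholangiocyte marker, was lower in Huh-7, at 16.97, 15.24 and 19.86 CPM after siARD1 and 24.89, 24.43 and 23.64 CPM in controls. SOX9, a further one, overlapped between groups in both lines. The summed level of the cholangiocyte markers in the Hep-3B-labelled cells was 14.14 to 17.78 CPM after siARD1 and 14.11 to 14.98 CPM in controls. In Huh-7 the summed level of these markers was 196.1 to 217.4 CPM after siARD1 and 202.5 to 220.6 CPM in controls. The number of them rising was 0 without siARD1 replicate 3 and 1 without any other library except siARD1 replicate 1 in the Hep-3B-labelled cells, and 1 without control replicate 1 in Huh-7. The part of these shifts in the results above was not tested, and in bulk RNA fewer cells of a type and less RNA per cell cannot be told apart.

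Annexin A1 is classed as an inhibitor of phospholipase A2 and a ligand of formyl peptide receptors. Of 15 genes for these receptors and for eicosanoid synthesis, 8 were tested in the Hep-3B-labelled cells, with 0 rising and 3 falling (list median 0.022), beside 32.2% of all genes called. They were PLA2G4C, a cytosolic phospholipase A2, which fell by 0.49 (SE 0.106, adjusted p = 0.00208), the calcium-independent phospholipase gene PLA2G6, which fell by 0.40 (SE 0.124, adjusted p = 0.0214), and PTGS1, the gene of cyclooxygenase 1, which fell by 0.38 (SE 0.131, adjusted p = 0.0331). The call of PLA2G6 was lost without siARD1 replicate 2 (-0.28) or control replicate 2 (-0.40). That of PTGS1 was lost without any one library except siARD1 replicate 2, with values of -0.41 to -0.27. The number falling was 1 without control replicate 2. In Huh-7 6 were tested, of which 2 rose and 3 fell (list median -0.25), beside 40.1% of all genes called. PLA2G4C rose to 3.77, 4.92 and 4.18 CPM after siARD1, against 1.58, 0.772 and 1.007 CPM in controls (log2 fold change 1.96, SE 0.25, adjusted p = 2.03e-06). PTGS1 fell by 1.27 (SE 0.324, adjusted p = 0.00337) and PLA2G6 by 0.70 (SE 0.1, adjusted p = 9.14e-06).

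Of 13 genes of the glucocorticoid response, 10 were tested in the Hep-3B-labelled cells, where 4 rose and 1 fell (list median 0.19), beside 32.2% of all genes called. The number rising was 1 without control replicate 2 or control replicate 3 and with upper-quartile scaling, and 2 without siARD1 replicate 1. CEBPD, a transcription factor, fell by 0.91 (SE 0.0792, adjusted p = 1.25e-06), KLF9, another, rose by 0.38 (SE 0.0711, adjusted p = 0.00074), and HSD11B2, which inactivates cortisol, rose by 0.66 (SE 0.241, adjusted p = 0.045). The call of HSD11B2 was lost without siARD1 replicate 2 (0.40), control replicate 2 (0.68) or control replicate 3 (0.55), and with upper-quartile scaling (0.63), DESeq2 (0.66) or limma-voom (0.63). In Huh-7 12 were tested, of which 5 rose and 2 fell (list median 0.20), beside 40.1% of all genes called, and the number falling was 0 without siARD1 replicate 2. MT2A, a metallothionein, rose to 182, 181 and 216 CPM after siARD1, against 64.6, 77.3 and 83.6 CPM in controls (log2 fold change 1.36, SE 0.0982, adjusted p = 2.02e-06), and DUSP1, a MAP kinase phosphatase, rose by 1.008 (SE 0.0955, adjusted p = 6.31e-08). ZBTB16, a zinc finger repressor, fell by 0.39 (SE 0.112, adjusted p = 0.00892), a call lost without siARD1 replicate 2 (-0.24).

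Of 28 other genes for calcium-dependent membrane binding and repair, 25 were tested in each line. In the Hep-3B-labelled cells 4 rose and 4 fell (list median 0.0051), where 32.2% of all genes were called. The number rising was 1 without control replicate 2, and 2 without any one other library except siARD1 replicate 2 or with upper-quartile scaling. FER1L6, a ferlin of low level, rose by 1.47 (SE 0.438, adjusted p = 0.0188), CAVIN1, a caveolar coat gene, fell by 0.38 (SE 0.0721, adjusted p = 0.000775), and EHD2, which stabilises caveolae, fell by 0.32 (SE 0.0618, adjusted p = 0.000861). The groups of FER1L6 overlapped, at 0.862, 2.86 and 1.39 CPM after siARD1 and 0.868, 0.579 and 0.388 CPM in controls. Its call was lost without siARD1 replicate 2 (0.89), control replicate 2 (1.43) or control replicate 3 (1.23). In Huh-7 6 rose and 5 fell (list median 0.051), where 40.1% of all genes were called. MYOF, which encodes the ferlin myoferlin, rose to 19.1, 31.9 and 25.7 CPM after siARD1, against 8.22, 5.77 and 6.17 CPM in controls (log2 fold change 1.94, SE 0.201, adjusted p = 4.89e-05). CAV1, the main caveolar coat gene, fell by 0.75 (SE 0.0921, adjusted p = 1.3e-06) and SYT7, a synaptotagmin, by 0.98 (SE 0.0929, adjusted p = 2.51e-06).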

How the data were processed

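Gene expression was measured by RNA-seq in 12 libraries. Per the labels' protocols, RNA was extracted with Trizol, freed of rRNA and turned into directional libraries. Per the submitters' processing notes, the authors used cutadapt 4.6, STAR 2.7.11b and GRCh38. Each line has its own deposited table of raw counts per gene, not normalised. The counter, its annotation and its strand setting were not given in the sources used here. Positions and lengths came from GENCODE 29.

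Each line was fitted alone with edgeR 4.0.16 in R 4.3.3 (filterByExpr with a minimum count of 10 and total of 15, TMM scaling, robust quasi-likelihood F-test, Benjamini-Hochberg threshold 0.05 over all genes tested). CPM are scaled within a line, except for the order of groups and the genes like ANXA1, which use the scaling of all 12 libraries. Line differences used the 22730 genes in both tables, and the interaction used all 12 libraries. The SE was taken as the size of the log2 fold change divided by the root of F, an approximation that is poor where counts are few. Alternatives were other scalings and filters, DESeq2 1.42.0, limma-voom (limma 3.58.1), a replicate block, 1 fit of all libraries, a false discovery rate of 0.01, and each library left out. Tests were checked on simulated data. Low levels were set beside genes of at least 100 CPM in one line whose level in the other was at least 1000-fold below it.

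The members and the gene lists were chosen with earlier results of these data known. Named besides the members and NAA10 are up to 3 called genes per list and line with at least 1 CPM, by size of change, and the 5 genes most like ANXA1. ANXA10 was named after its values were seen, and marker genes such as KRT19 were named outside this rule. Some genes that this rule names are not reported here. Protein sequences were not analysed here. Promoters matched for all 9 genes. Figures were drawn with matplotlib 3.10.9.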

Additional observations from a re-analysis of the deposited data

Results flagged for a closer look

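The siARD1 change differed between the lines for the genes below, each value being the log2 change in the Hep-3B-labelled cells minus that in Huh-7. For the annexins chosen on these changes the difference is a description, with no test read from it. It was -3.07 for ANXA1, -0.48 for ANXA2, where every siARD1 library lay below the controls in the Hep-3B-labelled cells and above them in Huh-7, and 1.22 for ANXA6, which is near absent in the Hep-3B-labelled cells.

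The other genes had been named for a large change in a line. They are listed because the difference passed edgeR's interaction test at an adjusted p under 0.05, as did 31.4% of all genes tested. Their choice used the changes that this test compares, so their differences too are a description, with no test read from them. Among relatives and partners the difference was -0.71 for ANXA9, -1.002 for S100A6, -0.89 for S100P and -1.19 for CD44. In the plasminogen system it was 0.60 for PLAU and -0.83 for SERPINE2. PLA2G4C, which fell in the Hep-3B-labelled cells and rose in Huh-7, differed by -2.45, and PTGS1 by 0.90. Among glucocorticoid-response genes it was -0.59 for CEBPD, -1.03 for DUSP1, 0.50 for KLF9 and -1.07 for MT2A. Among membrane-repair and caveolar genes it was -1.72 for MYOF, 0.84 for SYT7, 0.77 for CAV1 and -0.50 for CAVIN1. The fitted values of 5.10 for S100A9 and 1.81 for ZBTB16 depend on the prior count, since the Hep-3B-labelled cells held few reads. They held 1, 0 and 3 reads of S100A9 after siARD1 and 0 in each control. Of ZBTB16 they held 1, 7 and 10 reads after siARD1 and 3, 2 and 1 in controls. Both genes passed the filter on low counts through the Huh-7 libraries.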

How the results depend on the processing

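The Hep-3B-labelled cells had 5070 genes called, 3 of the 9 among them, at a false discovery rate of 0.05, and 3073 genes, 1 of the 9 (S100A10), at 0.01. With the replicate block 5 of the 9 were called, ANXA1 and ANXA5 being added. Whether same-numbered libraries were paired is not settled. In the Hep-3B-labelled cells their deviations correlated at 0.0344 to 0.0652, against -0.0548 to -0.0103 for different numbers, so each library correlated best with its own number, though weakly. In Huh-7 same-numbered libraries correlated at -0.0646 to 0.052, and this did not hold. Leaving out each library in turn gave 3695 to 4922 genes and 2 to 4 of the 9 in the Hep-3B-labelled cells, 5250 to 6137 and 7 to 8 in Huh-7, 13152 to 13596 and 8 to 9 between the lines in controls, 13294 to 13433 and 9 in siARD1 libraries, and 4738 to 5579 and 2 to 4 for the interaction. In the Hep-3B-labelled cells ANXA2 lost its call without siARD1 replicate 1, siARD1 replicate 2 or control replicate 3, and ANXA3 without control replicate 1. Calls were gained there by ANXA6 without siARD1 replicate 1, ANXA1 without siARD1 replicate 3 and ANXA5 without control replicate 3. ANXA4 in Huh-7 was called under 8 of 14 alternatives, and the interaction of ANXA6 lost its call under 11 of 19.

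Among the 9 genes, signs turned for 4 results. With each library left out, ANXA7 in the Hep-3B-labelled cells ran from -0.0947 to 0.0289, above 0 without siARD1 replicate 2 or control replicate 3, and ANXA11 in Huh-7 from -0.0369 to 0.00693, above 0 without siARD1 replicate 2. The interaction of S100A10 was -0.00032 with no filter and ran from -0.0232 to 0.103, below 0 without Hep-3B control replicate 2, Huh-7 siARD1 replicate 2 or Huh-7 control replicate 2. That of ANXA3 ran from -0.197 to 1.41, below 0 without Hep-3B control replicate 1. The cause was not tested. Per kb of the longest transcript the 9 genes summed to 1626 CPM per kb after siARD1 and 1893 in controls of the Hep-3B-labelled cells, and to 756.1 after siARD1 and 731.9 in controls of Huh-7, where ANXA5 then led in both groups. Low counts limit ANXA3 and ANXA6 in the Hep-3B-labelled cells.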
